A study of Mus musculus with 22 samples.

Results

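The ear of wild type (WT) mice was compared between 2 and 8 weeks of age. The comparison took every library titled WT at 2 weeks (4 libraries) and at 8 weeks (3 libraries), 7 of the 22 libraries of the series, and left out all 12 libraries of the Socs3 conditional knockout (cKO). All mice were on the C57BL/6 background, no treatment is named, and these WT mice are the age-matched counterparts of mice in which Socs3 was to be deleted under keratin 5, a gene of basal keratinocytes. The 3 WT libraries of 10 weeks are given only as context, with no test. The labels name the source as keratinocytes and the tissue as ear, and the protocol names ear specimens. The labels do not say whether each library was made from its own mouse. The p-values therefore reflect library-to-library spread alone, and that spread may be technical. The Y chromosome gene Eif2s3y was above 10 FPKM in 1 library of 2 weeks and in 0 of 8 weeks, so sex may not have been balanced between the ages. This cutoff was set on the values as deposited, whose median was lower at 8 weeks, and the labels do not give sex.

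Mouse ear skin covers a plate of elastic cartilage with strips of skeletal muscle, vessels and nerves. After birth the skin grows quickly, lays down collagen and elastin, and builds its first hairs. Hair follicles then pass through cycles of growth (anagen), regression and rest (telogen), and in dorsal skin a long resting phase falls in young adult life. In the growing follicle the matrix cells form the hair shaft, built of hair keratins cross-linked by keratin-associated proteins, inside an inner root sheath with keratins of its own. LEF1, a transcription factor that acts with β-catenin, is known to bind sites in hair keratin promoters.

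Levels are FPKM, fragments per kilobase of transcript scaled to the number of mapped fragments, and changes are differences in log2(FPKM + 1), 8 minus 2 weeks. Because of the added 1, changes of genes with low levels come out too small. Of 21110 genes, 13366 reached 1 FPKM in at least 3 of the 7 libraries and were tested with limma. A gene below 1 FPKM in every library of 1 age passed only through the other age, so only 1 direction could be called. The median FPKM of these genes was 10.0 to 10.2 at 2 weeks but 3.53, 5.07 and 2.57 at 8 weeks, so every change was computed both from the values as deposited and after median-of-ratios scaling, under which the median gene hardly changes. As deposited, 1248 genes were higher (9.34%) and 9063 lower (67.8%), with a median change of -1.01. After scaling, 4376 were higher (32.7%) and 4508 lower (33.7%), with a median of -0.03. In the text a gene is called, and is said to have risen or fallen, only where its Benjamini-Hochberg adjusted p was under 0.05 in the same direction under both scalings, which held for 1247 higher (9.33%) and 4508 lower (33.7%) of the tested genes. Under both scalings the libraries of the ages also did not overlap for 8.25% (higher) and 32.5% (lower) of tested genes. Another 468 genes were lower as deposited and higher after scaling. Without the third library of 8 weeks, 2112 genes in place of 1248 were higher as deposited.

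Some properties of the libraries moved with age. Olfactory and vomeronasal receptor genes, which serve the nose, were above 0 for 3.32% to 5.15% of 1204 genes at 2 weeks and for 50.5%, 73.0% and 56.4% at 8 weeks, at low values (95th percentile 0.308 to 0.686 FPKM at 8 weeks). The share of all FPKM in ribosomal protein genes was 11.7% to 12.1% at 2 weeks and 42.4%, 32.3% and 38.0% at 8 weeks. Short transcripts rose relative to long ones: the scaled change had a Spearman correlation of -0.398 with the longest annotated transcript across 13247 genes, which are not independent. Calls were therefore also made with a smooth trend on transcript length removed after scaling, an alternative added once the data had been seen, in which 4430 genes were higher (33.4%) and 4065 lower (30.7%). Of the called genes, 1146 of 1247 rises and 3467 of 4508 falls were called in the same direction there. The part of these shifts in the results below was not tested. Relative depth, read from the steps between low values, was 1 to 1.33 at 2 weeks and 1.06 to 1.40 at 8 weeks.

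**Figure D1:**
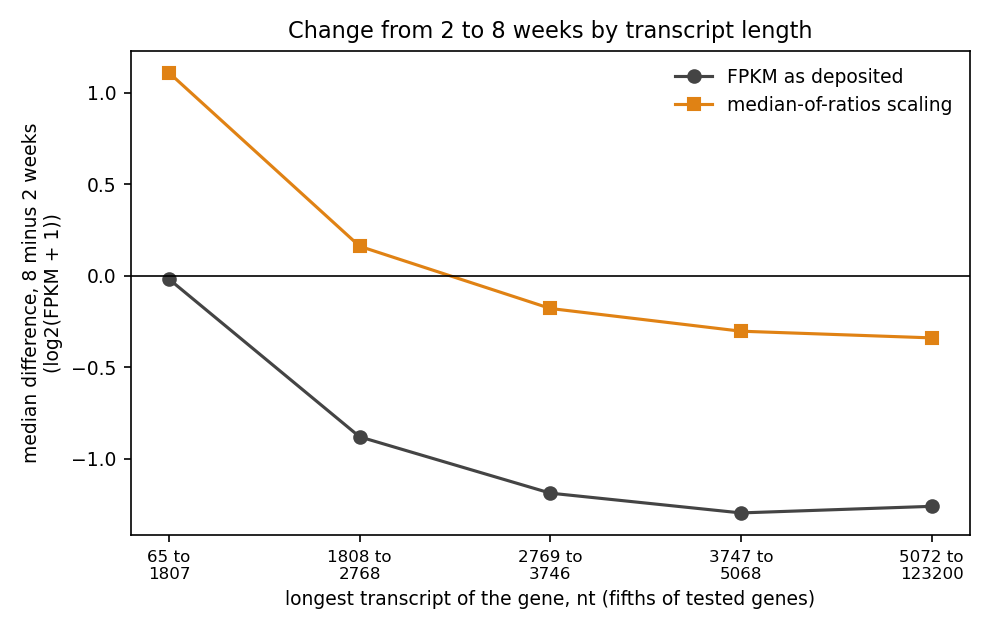
Median change from 2 to 8 weeks (log2(FPKM + 1)) of the tested genes in 5 bins of transcript length, as deposited and after scaling. The bin of the shortest transcripts (65 to 1807 nt) lies at -0.02 (deposited) and 1.11 (scaled) and that of the longest at -1.26 and -0.34, and 30.0% of genes in the shortest but 1.25% in the longest bin rose.

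Markers of several cell types were present at both ages. Keratinocyte genes Krt5 and Krt14 were above 261 FPKM and the fibroblast gene Col1a2 above 295 FPKM in all 7 libraries. Genes of cartilage (Acan), muscle (Ckm), endothelium (Pecam1) and Langerhans cells (Cd207) were also above 2 FPKM in all of them. Other markers of these types were not. At 8 weeks Col2a1 of cartilage was at 0.531 to 2.17 FPKM, Myh4 of muscle at 0.481 to 1.15 FPKM and Cdh5 of endothelium at 1.37 to 1.69 FPKM. The material thus held more than the keratinocytes its source label names. Matn1, a cartilage matrix gene, was at 0 in 6 of 7 libraries. In RNA from whole specimens, fewer cells of a type and less RNA per cell cannot be told apart.

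The genes that build hair were abundant at 2 weeks and close to 0 at 8 weeks. All 12 measured hair shaft keratins fell, as did 11 of 12 inner root sheath genes and all 46 tested keratin-associated protein genes of 48 measured. The background share of falls was 33.7%. Krt31, Krt34 and Krtap4-1 were among the members below 1 FPKM in every library of 8 weeks, for which the filter allowed only a fall. Their summed level was 767 to 1246 FPKM at 2 weeks and 4.23 to 7.69 FPKM at 8 weeks for the hair shaft keratins, 2408 to 3560 against 10.7 to 39.8 FPKM for the inner root sheath, and 3722 to 5597 against 21.7 to 47.3 FPKM for the keratin-associated proteins. All 12, 11 and 46 were also called lower with the length trend removed. This is no check on the keratin-associated protein genes, which are short (median 868 nt). Short transcripts shifted upward, so removing the trend was bound to deepen their falls (median -4.22 after scaling and -5.69 with the trend removed).

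The promoters of the hair genes were searched for short words. The 8-base word CTTTGAAG, the core of a LEF1 site, was searched on both strands in the 250 bases before the start of each gene, a search chosen after the values were seen. It stood in 4 of the 7 hair shaft keratin genes with an entry in the RefSeq promoter table (Krt31, Krt32, Krt33b and Krt34), in 4 of 38 keratin-associated protein genes and in 0 of 11 inner root sheath genes, against 1.68% of the 27025 genes of the table. The shorter word TTTGAA, which it contains, stood in 6 of 7, 10 of 38 and 3 of 11 of these genes, against 18.3% of all genes. The inner root sheath list also holds genes that are not keratins, and the difference between lists was not tested. TATAAA, also searched on both strands, stood in 5 of 7, 32 of 38 and 7 of 11, against 14.3% of all genes. The promoters of Krt31 and Krt34, 2 hair shaft keratins, and of Krt71, the inner root sheath keratin with the largest fall among the genes named by rule, are shown 5′ to 3′ up to the base before the start, with CTTTGAAG and TATAAA in capitals (RefSeq, GRCm38.p6, minus strand).
Krt31 (chr11:100050552-100050801): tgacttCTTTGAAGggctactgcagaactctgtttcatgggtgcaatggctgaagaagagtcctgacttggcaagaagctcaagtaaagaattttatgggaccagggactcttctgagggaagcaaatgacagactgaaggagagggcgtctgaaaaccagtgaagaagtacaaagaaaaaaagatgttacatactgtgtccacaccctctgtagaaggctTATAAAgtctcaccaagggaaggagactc
Krt34 (chr11:100041555-100041804): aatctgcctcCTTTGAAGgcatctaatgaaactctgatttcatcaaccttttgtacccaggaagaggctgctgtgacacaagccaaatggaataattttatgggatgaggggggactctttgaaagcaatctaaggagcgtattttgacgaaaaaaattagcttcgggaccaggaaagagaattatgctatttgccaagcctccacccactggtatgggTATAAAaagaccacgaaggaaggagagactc
Krt71 (chr15:101743098-101743347): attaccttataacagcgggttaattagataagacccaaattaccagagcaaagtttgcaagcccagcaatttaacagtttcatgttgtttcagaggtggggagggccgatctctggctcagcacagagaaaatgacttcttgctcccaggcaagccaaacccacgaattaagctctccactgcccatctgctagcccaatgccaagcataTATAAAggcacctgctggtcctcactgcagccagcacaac
CTTTGAAG begins 244 bases before the start in Krt31 and 240 bases before it in Krt34, and TATAAA begins 29, 31 and 40 bases before the start in Krt31, Krt34 and Krt71. A match is a description of letters and not evidence of binding, and the files hold no measure of binding. Krt31 and Krt34 lie close together on chr11, so their matches may not be independent.

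The genes with these promoters fell to traces. Krt31 stood at 78.9, 96.7, 133 and 87.2 FPKM at 2 weeks and at 0.178, 0.283 and 0.179 FPKM at 8 weeks, a fall of 6.34 (SE 0.25, limma adjusted p = 2.9e-09) and of 5.62 after scaling. Krt34 went from 77.6, 94.8, 135 and 81.2 FPKM to 0.0775, 0.567 and 0.0175 FPKM (-6.32, and -5.69 after scaling). For both genes every library of 8 weeks lay below every library of 2 weeks, and the third library of 2 weeks was the highest. Among the hair shaft keratins Krt32 kept the highest level at 8 weeks, 5.03, 4.02 and 2.96 FPKM against 28.7 to 50.8 FPKM at 2 weeks. Krt81, with Krt33a the member with the largest change, went from 108 ± 27.9 FPKM (SD, n = 4) to 0.0961 ± 0.0727 FPKM (n = 3), and Krt33a from 125 ± 33.6 to 0.349 ± 0.399 FPKM.

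The 9 largest falls among the genes named by rule were in the inner root sheath and among keratin-associated proteins. Krt71 stood at 784, 730, 1083 and 841 FPKM at 2 weeks and at 0.279, 1.69 and 0.41 FPKM at 8 weeks (-8.97, SE 0.33, limma adjusted p = 2.1e-09, and -8.13 after scaling). Krt25 (-8.08) and Krt27 (-7.66), type I keratins of the sheath, fell, and Tchh, trichohyalin, which hardens the sheath, by 7.56. The groups did not overlap for any of these 4 genes. Krtap8-1 went from 644, 762, 1001 and 728 FPKM to 0.978, 3.99 and 0.98 FPKM (-8.17), and Krtap7-1 (-8.16), Krtap15 (-7.79), Krtap16-5 (-7.35) and Krtap6-1 (-7.17) followed. Krtap4-1 was listed at 0 in all 3 libraries of 8 weeks, from 38.4 to 57.9 FPKM at 2 weeks. Krtap3-2 changed least of the keratin-associated proteins named here and kept 34.2, 16.1 and 6.99 FPKM (-2.32, and -1.07 after scaling). Many of these genes have near-identical copies between which the quantification may have split reads. The exception in the sheath list was Gata3, a transcription factor also used by T cells, which was lower as deposited (-1.13, limma adjusted p = 0.0221) and not called after scaling (0.10, adjusted p = 0.769).

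**Figure D2:**
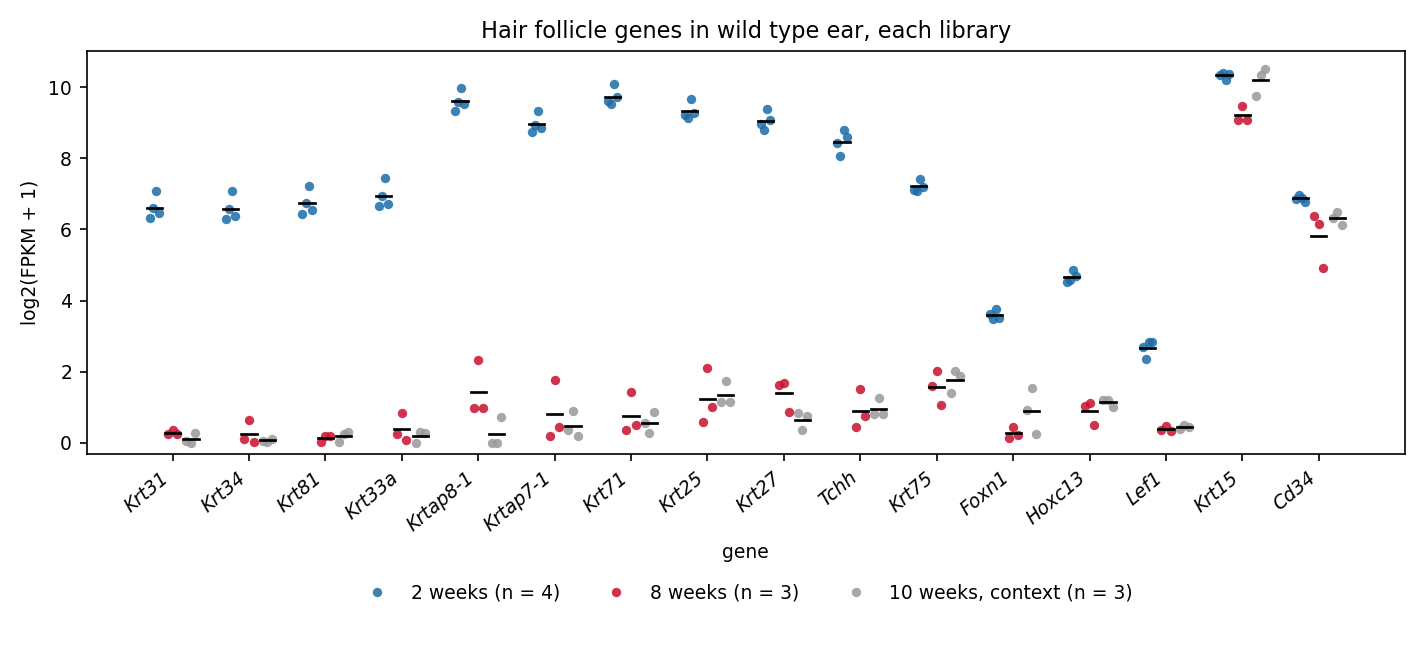
log2(FPKM + 1) of hair follicle genes in each library at 2 weeks (blue), 8 weeks (red) and 10 weeks (grey, context); bars are means. From Krt31 to Lef1 every library of 8 weeks lies below every library of 2 weeks, while Krt15 and Cd34 are lower by 1.12 and 1.06 on this scale and were not called after scaling.

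Many regulators of the growing follicle and genes of the bulge fell as well. Of 21 tested follicle regulators 16 fell and 1 rose, and of 14 genes of the bulge and resting follicle 10 fell and 0 rose. The shares over all tested genes were 33.7% and 9.33%. With the length trend removed 15 regulators and 11 bulge genes were lower, beside 30.7% of all genes. Hoxc13, which drives hair keratin genes, went from 22.1, 22.9, 28 and 24.6 FPKM to 1.07, 1.17 and 0.428 FPKM (-3.77, SE 0.23, limma adjusted p = 5.7e-08, and -2.88 after scaling). Dlx3 fell by 3.84, Foxn1, the gene mutated in nude mice, by 3.32, and Lef1 by 2.28 (5.45 ± 0.934 against 0.32 ± 0.0737 FPKM). No library of 8 weeks reached the level of any library of 2 weeks for these 4 genes. Foxn1 and Lef1 passed the filter only through the libraries of 2 weeks, so only a fall could have been called for them.

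Corin, a protease made by the dermal papilla, was the only regulator that rose, from 1.18, 1.42, 1.49 and 1.39 FPKM to 4.0, 6.6 and 2.5 FPKM (1.11, SE 0.22, limma adjusted p = 0.00058, and 2.01 after scaling). In the bulge list Krt75, a keratin of the companion layer, fell by 5.64, Lhx2 by 3.14 and Lgr5, a stem cell receptor, by 2.44. Krt15 (1284 ± 70.9 against 595 ± 95.2 FPKM) and Cd34 (116 ± 6.18 against 60.4 ± 27.7 FPKM), 2 markers of bulge stem cells, were lower as deposited and not called after scaling (0.18 and 0.23). These 2 were thus not among the genes that changed under both scalings.

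Imprinted genes, many of which regulate growth before and after birth and are expressed from a single parental copy, were far lower at 8 weeks. Of 20 tested, 15 fell and 0 rose, beside 33.7% and 9.33% of all tested genes. H19, a long noncoding RNA that shares an imprinted domain with Igf2, stood at 389, 440, 405 and 384 FPKM at 2 weeks and at 0.507, 2.30 and 4.14 FPKM at 8 weeks (-7.10, SE 0.38, limma adjusted p = 1.95e-08, and -6.03 after scaling). Igf2, the fetal growth factor, went from 155, 178, 156 and 150 FPKM to 4.99, 13.0 and 9.82 FPKM (-4.05, and -2.82 after scaling). The ages did not overlap for either gene, and both were still low at 10 weeks (4.03 to 8.03 FPKM for H19 and 16.1 to 22.0 FPKM for Igf2). The noncoding RNAs Rian (-4.51) and Meg3 (-4.34) and the Notch-like ligand Dlk1 (-4.14), which share another imprinted domain, fell as well.

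The growth suppressor Cdkn1c, also imprinted, was at 61.8 ± 5.28 FPKM and 25.1 ± 8.84 FPKM and was not called after scaling (-0.04, limma adjusted p = 0.85). With the length trend removed 11 imprinted genes were lower and 1 higher, and Peg3 (adjusted p = 0.067) and Peg10 (adjusted p = 0.164), which have transcripts of 8694 and 6667 nt, were among those no longer called. The list's median length was 4534 nt.

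Mir675, the microRNA gene inside H19, held the highest value of any tested gene in each library of 2 weeks. It was chosen after its values were seen, since small RNA genes are passed over by the rule for named genes. It stood at 8236, 11070, 7424 and 9265 FPKM at 2 weeks and was listed at 0 in all 3 libraries of 8 weeks. At 10 weeks it was listed at 0, 0 and 65.5 FPKM. In GRCm38 its 84-base hairpin lies at chr7:142577064-142577147 on the minus strand within exon 1 of an H19 transcript. The libraries carry no strand and were not made for small RNA, so reads of the hairpin gene cannot be told from those of H19, whose own values are given above, and the mature microRNAs were not measured. Their sequences are shown to identify them, with the seed (bases 2 to 8) in capitals (RefSeq, GRCm38.p6).
mmu-miR-675-5p: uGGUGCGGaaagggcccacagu
mmu-miR-675-3p: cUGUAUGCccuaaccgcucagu
The seeds of the arms differ, GGUGCGG and UGUAUGC. Over all 85 tested small RNA genes 15 rose and 26 fell, beside 9.33% and 33.7% of all tested genes. Once the length trend was removed 23 were higher and 12 lower, beside 33.4% and 30.7% of all genes.

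Genes that act in early growth fell. Of 11 tested early-life growth regulators 10 fell, beside 33.7% of all tested genes. Sox4, a transcription factor of progenitor cells, went from 21.7, 19.2, 19.3 and 23.4 FPKM to 0.597, 1.48 and 0.877 FPKM (-3.48, SE 0.22, limma adjusted p = 8.56e-08, and -2.55 after scaling). Ptn, a heparin-binding growth factor, fell by 2.52, Gpc3, a proteoglycan that restrains growth, by 2.40, and Igf2bp3, an RNA-binding protein of fetal tissues, by 2.32. For Sox4 and Ptn the ages did not overlap under either scaling.

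In the growth hormone and IGF axis 7 of 15 genes fell and 0 rose, beside 33.7% and 9.33% of all tested genes. The binding proteins Igfbp3 (147 ± 7.15 against 17.7 ± 11.5 FPKM, -3.16) and Igfbp5 (115 ± 7.76 against 25.5 ± 6.96 FPKM, -2.17) fell the most, Igfbp5 not being called with the length trend removed after scaling (limma adjusted p = 0.104). Igf1 itself stood at 16.3, 16.4, 16.1 and 15.7 FPKM and at 25.8, 27.7 and 13.6 FPKM. It was not called as deposited (0.38, limma adjusted p = 0.227) and was higher after scaling (1.62, adjusted p = 5.4e-05).

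The genes of collagen and elastin, which make up the dermis, were far lower at 8 weeks. Of 18 collagen genes 17 fell, of 25 genes of collagen processing 18 fell, and of 16 elastic fibre genes 11 fell, and no member of the 3 lists rose. The shares over all tested genes were 33.7% for falls and 9.33% for rises. Summed collagen was 14001 to 16355 FPKM at 2 weeks and 705, 1687 and 1601 FPKM at 8 weeks. Col1a1, a chain of type I collagen, stood at 3932, 4435, 3614 and 3544 FPKM and at 27.8, 121 and 408 FPKM (-5.10, SE 0.64, limma adjusted p = 1.18e-05, and -3.80 after scaling). The first library of 8 weeks was the lowest for Col1a1, Col3a1, Lox and Eln. Collagen transcripts are long (median 6024 nt), and 17 of 18 were also lower with the length trend removed.

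Among the processing genes, Lox, which cross-links collagen and elastin, went from 109.4, 107.6, 104.6 and 104.2 FPKM to 1.96, 9.53 and 13.6 FPKM (-3.80). P4hb, a subunit of the enzyme that hydroxylates collagen prolines, fell by 4.06, and Serpinh1, the collagen chaperone, by 3.13. Eln, elastin, stood at 1778, 2433, 2045 and 1505 FPKM and at 31.6, 69.4 and 46.9 FPKM (-5.32, SE 0.33, limma adjusted p = 7.45e-08, and -4.03 after scaling). At 10 weeks it was at 97.3, 155 and 109 FPKM. Ltbp4, which guides elastin assembly, fell by 3.98. Members that did not pass under both scalings included Col8a1 (-0.71 as deposited and 0.57 after scaling) and the microfibril gene Mfap5 (34.1 ± 3.34 against 33.1 ± 11.3 FPKM).

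Cartilage genes mostly fell, with 2 clear exceptions. Of 17 tested, 10 fell and 2 rose, beside 33.7% and 9.33% of all tested genes. Col2a1, the main collagen of cartilage, went from 141, 212, 179 and 119 FPKM to 0.531, 2.17 and 2.15 FPKM (-6.01, SE 0.33, limma adjusted p = 2.81e-08, and -4.98 after scaling). Col11a2 fell by 3.87 and Acan, aggrecan, by 2.43. Ucma, a small matrix protein of chondrocytes, rose from 2.96, 4.27, 2.63 and 2.58 FPKM to 63.3, 49.2 and 34.3 FPKM (3.58, SE 0.27, limma adjusted p = 2.52e-07, and 4.71 after scaling). Comp, a matrix protein that binds collagen, rose from 1.26, 1.16, 0.934 and 0.90 FPKM to 4.35, 8.10 and 5.09 FPKM (1.69, and 2.60 after scaling). Both kept their rise with the length trend removed, and neither overlapped between ages, so cartilage genes moved in opposite directions within the same libraries.

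**Figure D3:**
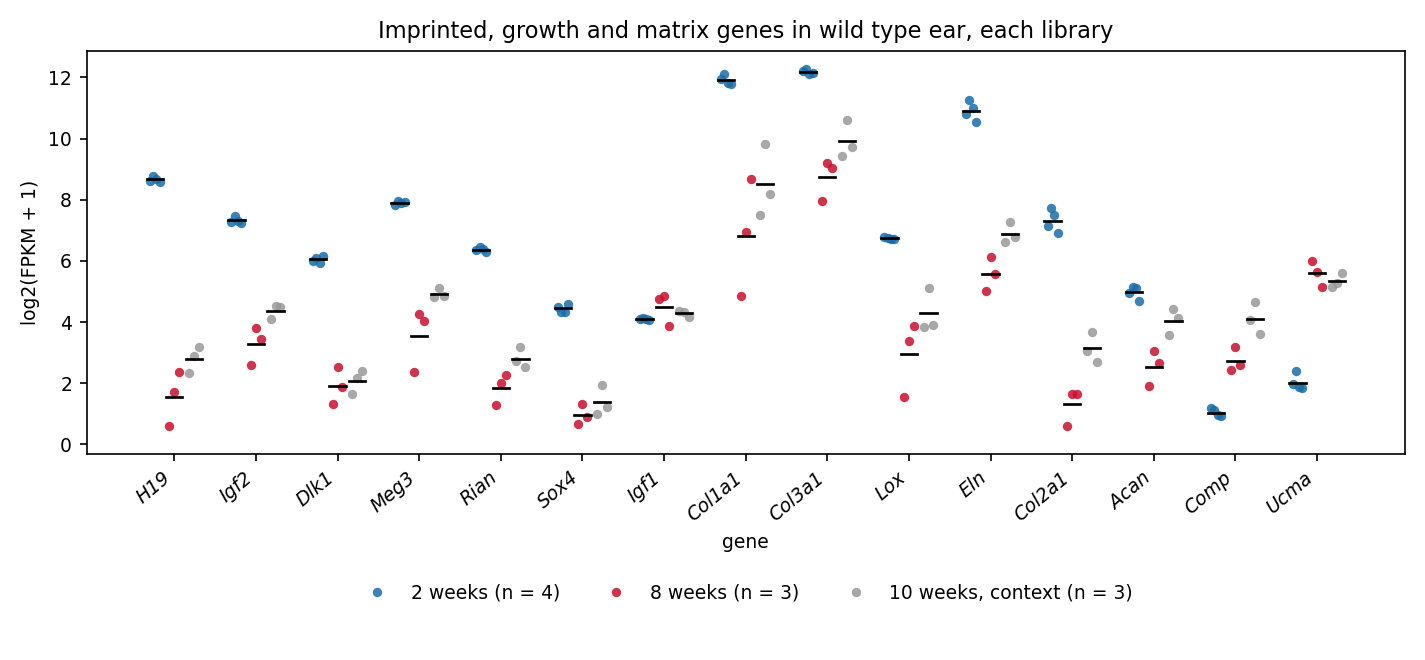
log2(FPKM + 1) of imprinted, growth and matrix genes in each library at 2 weeks (blue), 8 weeks (red) and 10 weeks (grey, context); bars are means. H19 goes from 384 to 440 FPKM down to 0.507 to 4.14 FPKM, while Comp and Ucma lie higher at 8 weeks and Igf1 overlaps between the ages.

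Cell cycle genes fell at about the background share. Of 28 mitosis genes 11 fell and 0 rose, and of 25 DNA replication genes 7 fell and 1 rose, against 33.7% and 9.33% of all tested genes. The medians were -1.34 and -1.13 as deposited and -0.27 and -0.11 after scaling, beside -1.01 and -0.03 for all genes. Foxm1, a transcription factor of mitotic genes, went from 8.38, 7.97, 8.16 and 8.71 FPKM to 0.685, 0.939 and 0.741 FPKM (-2.38, SE 0.17, limma adjusted p = 1.68e-07, and -1.51 after scaling), and Plk1, a mitotic kinase, fell by 2.26 and Uhrf1, which maintains DNA methylation, by 2.60. Mki67, the usual mark of cycling cells, was at 11.7 ± 0.618 and 3.80 ± 0.394 FPKM and was not called after scaling (-0.27, limma adjusted p = 0.239). Some members fell under both scalings without overlap, but most did not pass. Foxm1 passed the filter only through the libraries of 2 weeks, so a rise could not have been called for it.

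Tyms, thymidylate synthase, was the replication gene that rose, from 6.06, 6.50, 6.14 and 5.81 FPKM to 51.3, 72.4 and 32.4 FPKM (2.82, SE 0.28, limma adjusted p = 2.11e-06, and 4.02 after scaling). Its pseudogene Tyms-ps rose in the same libraries, from 1.36 to 1.64 FPKM to 24.5, 34.5 and 13.7 FPKM, and reads of the near-identical copies may be split between them. Other replication genes did not share this rise: Rrm2, also in nucleotide synthesis, fell by 2.24. The promoters of the mitosis and replication genes were searched for known cell cycle words on both strands in the same 250 bases, with no test of the difference between the lists. CCAAT stood in 18 of 22 mitosis and 12 of 21 replication genes with an entry, against 37.5% of all genes. GCGGGAA, the core of an E2F site, stood in 0 of 22 and 6 of 21, against 4.38%. TTTGAA, the core of the CHR element and also contained in CTTTGAAG, stood in 8 of 22 and 2 of 21, against 18.3%.

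Basal keratinocyte genes fell, with Krt14 an exception. Of 13 basal genes 11 fell and 0 rose, beside 33.7% and 9.33% of all tested genes. Krt14 stood at 1662, 1656, 1633 and 1642 FPKM and at 2671, 1430 and 1905 FPKM, not called as deposited (0.23, limma adjusted p = 0.458) and higher after scaling (1.54, adjusted p = 0.0115). Its partner Krt5 went from 2197, 2374, 2270 and 2233 FPKM to 704, 635 and 261 FPKM (-2.21, SE 0.35, adjusted p = 7.87e-05 by limma, and -0.91 after scaling). In the second library of 8 weeks both keratins lay below all libraries of 2 weeks. Among adhesion proteins Cdh3, P-cadherin, fell by 3.72 (28.3 ± 1.88 against 1.25 ± 0.452 FPKM) and Col17a1, a hemidesmosome collagen, by 3.36 (215 ± 3.19 against 22.5 ± 13.7 FPKM). The list's median length was 5164 nt, Krt14 is annotated at 1698 nt, and 9 of the 13 genes were lower with the length trend removed.

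Suprabasal genes divided. Of 22 tested 7 fell and 2 rose, and of 20 barrier lipid enzymes 6 fell and 0 rose, near the background share of falls. Krt1 went from 723, 778, 1005 and 901 FPKM to 31.4, 27.3 and 20.1 FPKM (-4.98, SE 0.30, limma adjusted p = 5.19e-08, and -3.69 after scaling), and its partner Krt10 from 3031 ± 251 to 656 ± 287 FPKM (-2.32). Casp14, a protease of cornification, fell by 3.13, and in the lipid list Nipal4 fell by 2.60 and Smpd1 by 2.34. Krtdap rose from 1619, 1474, 1792 and 1713 FPKM to 16408, 4122 and 5681 FPKM (2.14, SE 0.40, adjusted p = 0.0003 by limma, and 3.45 after scaling), and Dmkn from 877 ± 90.5 to 2551 ± 1751 FPKM (1.33). Both are secreted proteins of differentiating keratinocytes, and the first library of 8 weeks was the highest for each. The late marker Lor was at 663 ± 88.6 and 236 ± 91.5 FPKM and was not called after scaling (-0.27, adjusted p = 0.369).

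Slurp1, a secreted Ly6 protein of keratinocytes, rose from 28.7, 20.5, 36.1 and 31.6 FPKM to 997, 302 and 263 FPKM (3.86, SE 0.43, limma adjusted p = 4.95e-06, and 5.14 after scaling). In the list of stress keratinocyte genes 4 rose and 2 fell of 13 tested, beside 9.33% and 33.7% of all tested genes. Defb14, a defensin, rose from 1.22, 1.84, 0 and 1.08 FPKM to 72.4, 11.3 and 15.6 FPKM (3.69), and Il1f9, an IL-1 family cytokine, from 10.1 ± 1.61 to 21.2 ± 7.68 FPKM (0.95). S100a8 and S100a9, which neutrophils also make, rose by 1.58 and 1.82 but were not called with the length trend removed (limma adjusted p = 0.153 and 0.0531).

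The stress keratins went the other way. Krt6a fell from 258, 278, 287 and 257 FPKM to 5.48, 9.58 and 9.38 FPKM (-4.92, SE 0.29, limma adjusted p = 4.86e-08, and -3.69 after scaling) and Krt6b from 74.6 ± 3.12 to 0.972 ± 0.726 FPKM (-5.34). Krt6a is also a keratin of the follicle's companion layer. With the length trend removed 2 members of the list were higher and 6 lower, beside 33.4% and 30.7% of all genes in that setting.

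Gland and fat genes rose and fell in the same lists. Of 20 sebaceous gland genes 4 rose and 5 fell, beside 9.33% and 33.7% of all tested genes, so falls lay below the background share. Scd1, a desaturase of sebaceous lipids, was at 294, 270, 262 and 271 FPKM and at 1032, 1133 and 296 FPKM (1.35, SE 0.42, limma adjusted p = 0.0105, and 2.65 after scaling), the third library of 8 weeks being close to those of 2 weeks. Mgst1 (92.4 ± 8.01 against 292 ± 75 FPKM) and Cidea (44.3 ± 2.58 against 122 ± 39.9 FPKM) rose in all 3 libraries, while Awat1 overlapped (33.9 FPKM in the third library of 8 weeks against 34.4 FPKM at 2 weeks). Fads2 fell by 2.99 and Far2, which makes fatty alcohols for wax, by 2.79. Fads2 passed the filter only through the libraries of 2 weeks, so a rise could not have been called for it. With the length trend removed 9 members were higher and 4 lower, beside 33.4% and 30.7% of all genes in that setting.

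Of 15 adipocyte genes 3 rose and 3 fell, beside 9.33% and 33.7% of all tested genes, so falls again lay below the background share. The secreted proteins Retn (1.19, 2.11, 0.859 and 1.88 FPKM against 12.1, 6.77 and 10.2 FPKM, 2.09), Cfd (1.72) and Adipoq (1.36) rose, and the hormone-sensitive lipase Lipe fell by 1.89. Plin1, which coats fat droplets, was at 2.65 ± 0.33 and 1.04 ± 0.83 FPKM and was not called after scaling. With the length trend removed 6 members of the list were higher and 3 lower, beside 33.4% and 30.7% of all genes in that setting.

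Muscle genes mostly fell, and a few rose. Of 9 tested genes of developing muscle 6 fell and 0 rose, and of 21 of adult muscle 9 fell and 2 rose, against 33.7% and 9.33% of all tested genes. Myh8, the perinatal myosin heavy chain, went from 30.0, 31.1, 25.3 and 36.9 FPKM to 0.171, 0.131 and 0.202 FPKM (-4.76, SE 0.21, limma adjusted p = 4.47e-09, and -4.06 after scaling), and Actc1, the actin of developing muscle, fell by 3.29. Myh8 passed the filter only through the libraries of 2 weeks, so a rise could not have been called for it. Mb, myoglobin, which stores oxygen in slow fibres, had the largest rise among the genes named by rule, from 4.32, 4.91, 2.63 and 3.58 FPKM to 289, 164 and 83.1 FPKM (5.06, SE 0.38, adjusted p = 2.43e-07 by limma, and 6.21 after scaling). At 10 weeks it was at 318, 365 and 559 FPKM.

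Myl2, the slow myosin light chain, was listed at 0 in 3 of 4 libraries of 2 weeks and at 0.161 FPKM in the fourth, and stood at 34.5, 14.9 and 6.34 FPKM at 8 weeks (3.95). Myl2 passed the filter only through the libraries of 8 weeks, so a fall could not have been called for it. Tnni2, a troponin of fast fibres, rose from 103 ± 18.5 to 356 ± 299 FPKM (1.49). Against these, Myh4, a fast myosin heavy chain of adult muscle, fell from 28.8, 28, 21.0 and 22.3 FPKM to 1.15, 0.481 and 0.63 FPKM (-3.90), and Acta1, skeletal actin, by 3.63. Mb, Myl2 and Tnni2 are annotated at 1104, 889 and 895 nt and Myh4 and Myh8 at 6016 and 6149 nt. All 5 were called in the same direction with the length trend removed. Actc1, which fell, is annotated at 1473 nt. Its change was -2.40 after scaling and -3.15 with the length trend removed, a step that deepens falls of short transcripts. The part of length in this split was not tested.

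Vessel, smooth muscle and nerve genes were lower at 8 weeks. Of 15 endothelial genes 8 fell and 1 rose, of 12 smooth muscle and pericyte genes 11 fell and 0 rose, and of 15 Schwann cell and myelin genes 10 fell and 0 rose. The shares over all tested genes were 33.7% and 9.33%. With the length trend removed 7, 9 and 9 members of these lists were lower and 2, 0 and 0 higher. In that setting 30.7% of all genes were lower and 33.4% higher. The smooth muscle and pericyte list had a median length of 4759.5 nt. Cdh5, VE-cadherin, went from 18.9, 19.6, 19.5 and 17.6 FPKM to 1.37, 1.54 and 1.69 FPKM (-2.98, SE 0.20, limma adjusted p = 1.23e-07, and -1.94 after scaling), and Eng, a receptor of endothelial cells, fell by 2.93. Emcn, endomucin, was the endothelial gene that rose (6.13 ± 1.3 against 11.2 ± 3.30 FPKM, 0.76). Smtn, smoothelin, fell by 3.80 (61.6 ± 2.06 against 3.64 ± 1.49 FPKM) and the pericyte proteoglycan Cspg4 by 2.86. In the Schwann cell list Prx, periaxin, fell by 3.25, from 18.4, 17.9, 17.6 and 17.8 FPKM to 0.492, 1.91 and 0.822 FPKM. Each of these falls was without overlap between the ages.

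In melanocytes, 3 of 10 tested genes fell and 1 rose, close to the background. Trpm1 (-2.53), Tyrp1 (-2.69) and Ednrb (-1.98) fell, while Mlana rose from 50.7, 61.7, 40.1 and 60.1 FPKM to 108, 103 and 119 FPKM (1.05, SE 0.28, limma adjusted p = 0.00457, and 2.33 after scaling). Mlana was lower again at 10 weeks (27.8 to 53.1 FPKM). The pigment enzymes Dct and Tyr were not called under both scalings.

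**Figure D4:**
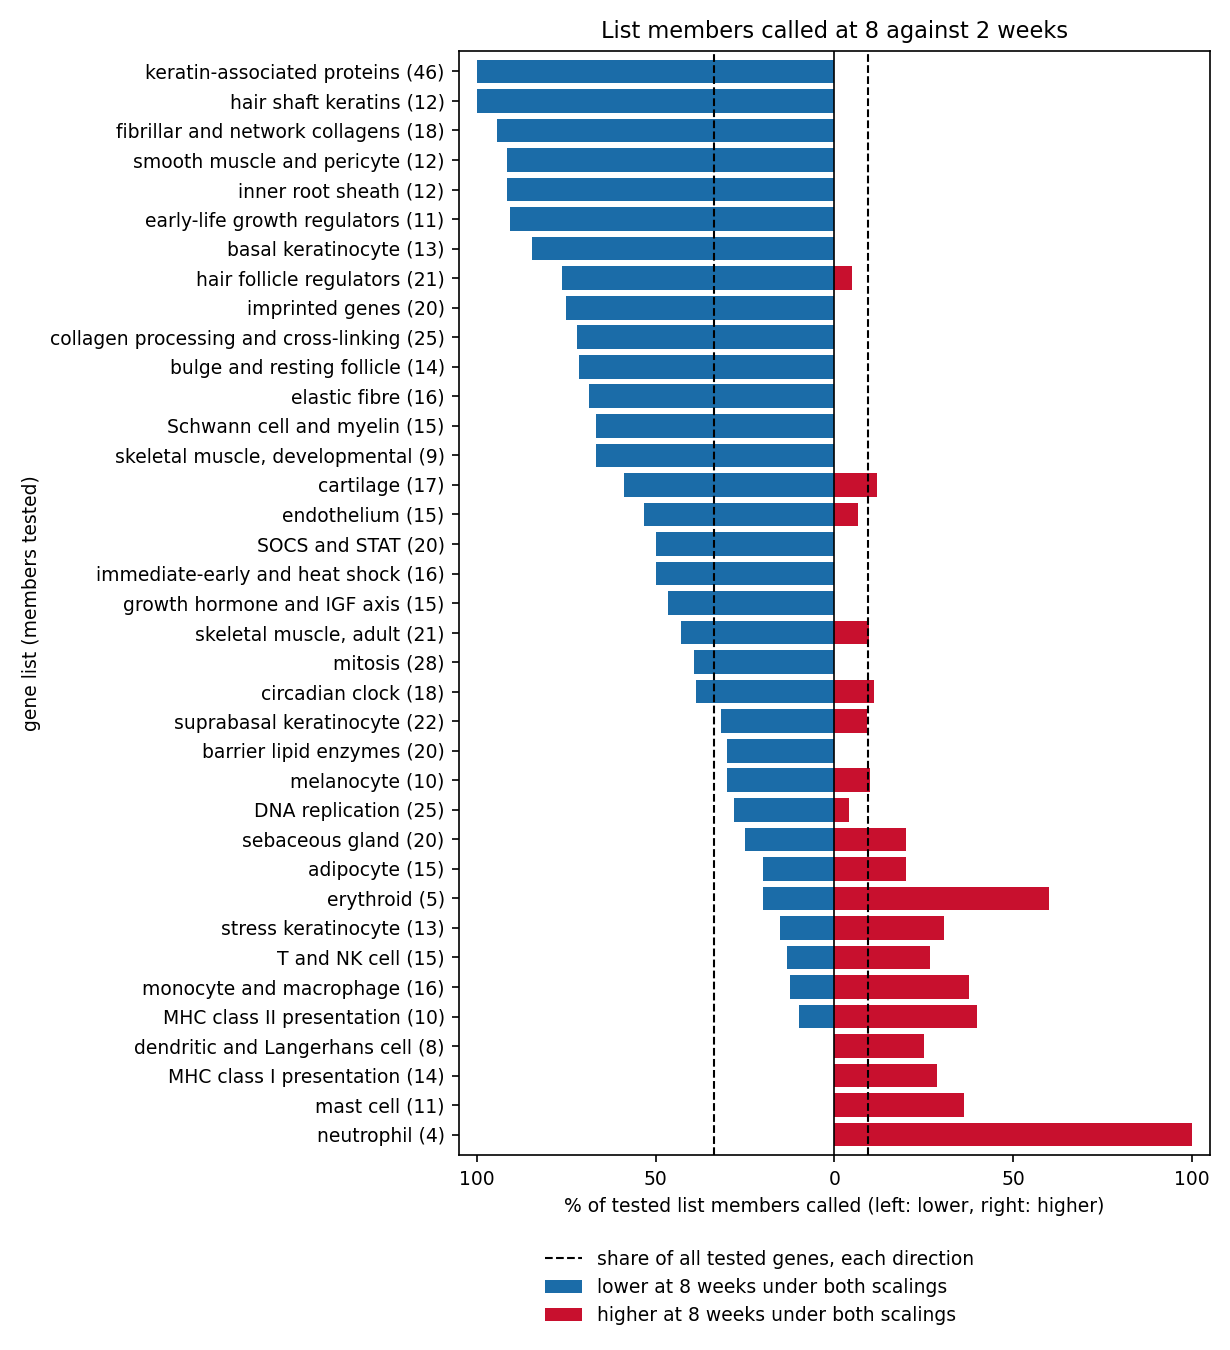
Share of tested members of each gene list called lower (blue, left) or higher (red, right) at 8 weeks under both scalings; the number tested is in brackets and the dashed lines mark the shares over all tested genes, 33.7% lower and 9.33% higher. Hair, collagen and smooth muscle lists lie far beyond the lower line, and immune lists have more members higher than the upper line and few lower.

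In the immune lists more genes rose than fell under both scalings, and no mast cell, dendritic cell, MHC class I, neutrophil or B cell gene fell under both. Over all tested genes 9.33% rose and 33.7% fell, but in the bin of the shortest transcripts 30.0% rose and 11.2% fell. Median lengths were 1446.5 nt for MHC class II and 1457 nt for B cell genes, within that bin. With the length trend removed 33.4% of all genes were higher and 30.7% lower. There 7 MHC class II genes were higher and 0 lower, 11 and 0 for MHC class I, 10 and 1 for macrophages. The counts were 7 and 2 for T and NK cells, 7 and 1 for mast cells, and 6 and 0 for dendritic cells. Only 4 of 11 measured neutrophil genes and 3 of 11 measured B cell genes were tested. As deposited alone, falls outnumbered rises in the T and NK cell list (5 against 4), the dendritic cell list (3 against 2) and the MHC class I list (5 against 4), and 3 mast cell genes were lower against 4 higher. Among MHC class II genes, which present antigen to T cells, 4 of 10 rose and 1 fell. H2-Aa went from 170, 185, 178 and 149 FPKM to 564, 610 and 443 FPKM (1.65, SE 0.28, limma adjusted p = 0.000162, and 2.94 after scaling), and H2-Eb1 from 80.3 ± 5.03 to 246 ± 47.6 FPKM (1.59). H2-Ab1, of the same complex, reached 301 and 494 FPKM in the first 2 libraries of 8 weeks and 94.9 FPKM in the third, below all of 2 weeks, and was not called as deposited (adjusted p = 0.138). The gene that fell was Ciita, the master activator of class II genes, from 2.45, 1.98, 2.05 and 2.31 FPKM to 0.296, 0.374 and 0.519 FPKM (-1.20, and -0.56 after scaling). Ciita is annotated at 6007 nt and was not called with the length trend removed (limma adjusted p = 0.479). It passed the filter only through the libraries of 2 weeks, so a rise could not have been called for it.

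MHC class I presentation, mast cell and phagocyte genes rose in part. Of 14 class I genes 4 rose: B2m, the shared light chain (346 ± 43.5 against 944 ± 343 FPKM, 1.39), the proteasome activator subunit Psme2 (2.02), and the immunoproteasome subunits Psmb10 (1.80) and Psmb8 (0.63). Of 11 mast cell genes 4 rose. Fcer1a, a chain of the IgE receptor, went from 0.0949, 0.0714, 0.174 and 0.0839 FPKM to 3.05, 1.89 and 2.86 FPKM (1.69), and the protease Cma1 from 135, 132, 137 and 141 FPKM to 289, 178 and 274 FPKM (0.82, limma adjusted p = 0.021). Fcer1a passed the filter only through the libraries of 8 weeks, so a fall could not have been called for it. The Cma1 call was lost as deposited without any single library of 2 weeks (adjusted p = 0.0625 to 0.0704). Mast cell genes Cpa3 and Kit did not pass as deposited, so the list did not move as a whole.

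Of 16 monocyte and macrophage genes 6 rose and 2 fell. C1qa, a chain of complement C1q, went from 47.9, 60.0, 56.2 and 48.4 FPKM to 301, 132 and 127 FPKM (1.68, SE 0.34, limma adjusted p = 0.000646, and 2.97 after scaling), and C1qb, C1qc, Cd14, Ccr2 and Lyz1 (21.2 ± 2.72 against 76.8 ± 19.8 FPKM) rose as well. Lyz1 has a close copy, Lyz2, which was not called as deposited. Mertk, a receptor for dying cells, fell by 2.58 and Itgam by 1.14. Csf1r (-0.60 as deposited and 0.65 after scaling) and Emr1 (-0.45 and 0.72), general macrophage markers, were not called, so the members did not share a direction.

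Some T cell, B cell, dendritic and neutrophil genes rose. Of 15 T and NK cell genes 4 rose and 2 fell. Cd3d rose from 1.80, 2.24, 1.27 and 2.09 FPKM to 26.9, 12.9 and 8.41 FPKM (2.44, SE 0.31, limma adjusted p = 1.4e-05, and 3.48 after scaling), and Cd3g by 1.16. Cd3e, a chain of the same receptor, was at 3.25 to 4.98 and 1.37 to 6.03 FPKM and was not called as deposited. Il2rb fell by 1.41 and passed the filter only through the libraries of 2 weeks, so a rise could not have been called for it. It was also called lower with the length trend removed after scaling (-0.42, limma adjusted p = 0.037) but not with the trend removed from the values as deposited (adjusted p = 0.631). The chains of the T cell receptor complex thus did not rise to the same extent.

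B cell genes Cd79a (0.410 ± 0.0721 against 2.88 ± 0.767 FPKM) and Cd79b rose, 2 of 3 tested, and 8 of 11 measured did not reach the filter. Cd79a was below 1 FPKM in every library of 2 weeks. It passed the filter only through those of 8 weeks, so a fall could not have been called for it. Of 8 dendritic and Langerhans cell genes 2 rose: Cd207, langerin, from 8.77, 6.90, 6.31 and 8.27 FPKM to 18.3, 18.1 and 11.7 FPKM (0.98), and Batf3 (1.5). All 4 tested neutrophil genes of 11 measured rose, among them Cxcr2 (1.04 ± 0.123 against 7.30 ± 3.02 FPKM, 1.96) and Lcn2 (1.93), which keratinocytes also make, but the other 7 did not reach the filter. Ear5, a member of the eosinophil ribonuclease family, rose from 4.08, 7.30, 8.77 and 5.59 FPKM to 280, 177 and 116 FPKM (4.64) and has close copies in the genome.

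Haemoglobin transcripts rose strongly and unequally. Hba-a1 stood at 172, 169, 193 and 168 FPKM and at 9070, 1841 and 1331 FPKM (3.996, SE 0.52, limma adjusted p = 1.67e-05, and 5.30 after scaling), and its near-identical copy Hba-a2 followed it (4.01). Hbb-b1 rose by 2.42. The membrane protein of red cells Slc4a1 fell in the same libraries, from 3.26 ± 0.318 to 0.185 ± 0.0176 FPKM (-1.84). Slc4a1 passed the filter only through the libraries of 2 weeks, so a rise could not have been called for it. Of 5 tested erythroid genes 3 rose and 1 fell, beside 9.33% and 33.7% of all tested genes. The amount of blood in the specimens was not measured.

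**Figure D5:**
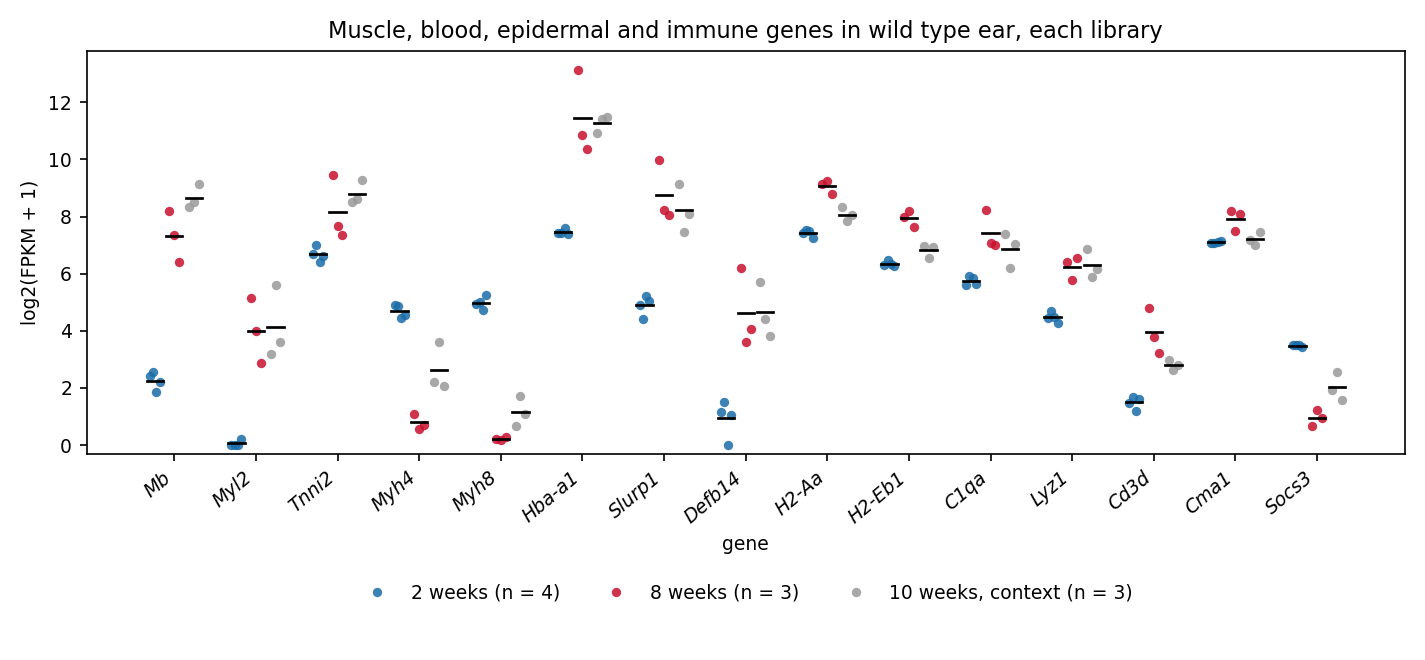
log2(FPKM + 1) of muscle, blood, epidermal and immune genes in each library at 2 weeks (blue), 8 weeks (red) and 10 weeks (grey, context); bars are means. Mb rises from 2.63 to 4.91 FPKM to 83.1 to 289 FPKM, the first library of 8 weeks is the highest of its age for Hba-a1, Slurp1, Defb14 and Cd3d, and Myh4, Myh8 and Socs3 lie lower at 8 weeks.

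Other large rises were in genes of no list. Guca2a, guanylin, a peptide known from the gut, rose from 1.10, 3.30, 2.21 and 3.10 FPKM to 131, 44.7 and 59.2 FPKM (4.43, SE 0.37, limma adjusted p = 4.9e-07, and 5.52 after scaling). Zfp488, a transcriptional repressor known from oligodendrocytes, rose from 6.92, 6.86, 6.55 and 7.16 FPKM to 130, 202 and 89.1 FPKM (4.09), on a transcript annotated at 4301 nt. Myoc, myocilin, rose from 15.7, 14.8, 12.9 and 13.2 FPKM to 222, 284 and 143 FPKM (3.79). These 3 genes stayed at 28.5 FPKM or more in every library of 10 weeks. Snhg9, a short host transcript of a small nucleolar RNA, stood at 3.84, 8.66, 0 and 0 FPKM at 2 weeks and at 25.3 to 51.1 FPKM at 8 weeks. At 10 weeks it was at 44.8, 0 and 45.3 FPKM, so a 0 was also listed at a later age.

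Cytokine signalling genes, among them Socs3, fell in part. Socs3, the inhibitor of JAK and STAT3 signalling that the series is about, stood at 10.2, 10.3, 10.3 and 9.71 FPKM at 2 weeks and at 0.604, 1.36 and 0.93 FPKM at 8 weeks (-2.52, SE 0.19, limma adjusted p = 2.87e-07, and -1.62 after scaling). Of 20 tested genes of the SOCS and STAT list 10 fell and 0 rose, beside 33.7% and 9.33% of all tested genes. Il6ra, a chain of the IL-6 receptor, fell by 3.30 (15.9 ± 1.3 against 0.739 ± 0.385 FPKM) and Stat3 by 2.04 (48.1 ± 1.02 against 11.9 ± 5.50 FPKM). The shared receptor chain Il6st was at 26.6 ± 4.04 and 11.6 ± 3.68 FPKM and was not called after scaling (0.07). The list's median length was 4968 nt. With the length trend removed 8 members were higher and 6 lower, beside 33.4% and 30.7% of all genes in that setting. Socs3 and Il6ra were among the lower and Stat3 was not called (limma adjusted p = 0.186).

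Clock genes moved in both directions at about the background shares, and early response genes fell in part. Of 18 circadian clock genes 7 fell and 2 rose, beside 33.7% and 9.33% of all tested genes. With the length trend removed 10 clock genes were higher and 4 lower, beside 33.4% and 30.7% of all genes in that setting. Dbp, an output gene of the clock, rose from 6.81, 7.14, 7.39 and 9.38 FPKM to 16.1, 22.3 and 12.9 FPKM (1.04, SE 0.25, limma adjusted p = 0.00211, and 2.23 after scaling), and Gm129, a clock repressor, by 1.26. Nfil3, which opposes Dbp at shared sites, was lower (-2.998, 19.3 ± 0.623 against 1.69 ± 1.10 FPKM), and Per1, a core repressor, by 2.28. The hour at which the ears were taken is not given in the labels. Of 16 immediate-early and heat shock genes 8 fell and 0 rose, among them Jun (-2.78) and Hspa1a (-2.62), while Fos was at 14.1 ± 1.78 and 14.4 ± 5.07 FPKM and was not called as deposited (-0.01).

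Ribosomal protein transcripts rose almost throughout, and histone transcripts depended on the setting. Of 82 tested ribosomal protein genes 74 rose and 0 fell, also 76 and 0 with the length trend removed, and Rpl38 stood at 1503, 1498, 1476 and 1318 FPKM and at 35836, 9229 and 7542 FPKM (3.23, SE 0.44, limma adjusted p = 2.37e-05, and 4.53 after scaling). Of 45 replication-dependent histone genes, whose transcripts are short and mostly lack a poly(A) tail, 13 rose and 1 fell, against 6 higher and 16 lower with the length trend removed, so their direction turned with that setting. Of all genes 9.33% rose and 33.7% fell, and 33.4% were higher and 30.7% lower with the trend removed. Of 3 tested olfactory neuron genes 1 fell and 0 rose, and Omp, which marks mature olfactory neurons, was at 0.622 to 1.25 FPKM at 2 weeks and 0.176 to 0.312 FPKM at 8 weeks, while receptor genes were above 0 in more of the list.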

How the data were processed

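RNA was sequenced from ear specimens with TruSeq RNA Library Preparation v2, an unstranded kit, as single reads of 50 bases, per the labels' protocols. TopHat2 2.1.0, Cufflinks and the mm9 build are named per the submitters' processing notes; the annotation is not given in the sources used here. The authors deposited 1 FPKM value per gene symbol, which is not a count, so depth in reads is unknown and no count model was used. A 0 can be a failed estimate.

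Values were transformed to log2(FPKM + 1), as deposited and after median-of-ratios scaling. Genes reaching 1 FPKM in 3 or more of the 7 libraries were tested, 8 against 2 weeks, with limma 3.58.1 in R 4.3.3 (empirical Bayes with intensity trend, two-sided, Benjamini-Hochberg adjusted p under 0.05 over 13366 genes). No 2 libraries held identical values. Replicates correlated at r = 0.976 to 0.986 at 2 weeks and 0.938 to 0.955 at 8 weeks across genes. The fit was tested on simulated data over 13366 genes, 200 of them altered. There it found 35% of the shifts of 1 and 89% of the shifts of 2 (log2), and 2.36% of its calls were false. The share of false calls was not tested for data in which most genes were lower, as deposited here (67.8%). Nor was it tested for data with a trend on transcript length.

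The members and gene lists were chosen with earlier results of these data known. The rule for named genes takes the 10 largest rises and falls called under both scalings without overlap, 2 such members per list, and Socs3; unnamed models, small RNA genes, sensory receptors and sex-linked transcripts are passed over. Further list members are named as examples chosen after their values were seen. Alternatives were other pseudocounts, filters, scalings, weights, a block and leaving out libraries. Transcript lengths (GENCODE vM21, 99.1% of tested genes) and sequences come from GRCm38, another build than that of the files, and were matched by gene symbol. The length trend was a loess of span 0.5. Tables were made in Python 3.11.15 (pandas 2.3.3, numpy 2.4.6), figures in matplotlib 3.10.9.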

Additional observations from a re-analysis of the deposited data

Results flagged for a closer look

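At 2 weeks, 7 of 93 named genes had a library far from the others of its group (Dixon's test at 95%, which chance passes in about 1 group in 20; the groups of 3 at 8 weeks were not tested). The third library was high for Hba-a1 (193.0 FPKM against 168 to 172) and Krtap15 (389 FPKM against 243 to 265). The second was high for P4hb (259 FPKM against 237 to 240). The fourth was high for Ednrb (23.2 FPKM against 19.9 to 20.4) and Myl2 (0.161 FPKM, the others listed at 0), and low for Socs3 (9.71 FPKM against 10.2 to 10.3) and Rpl38 (1318 FPKM against 1476 to 1503).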

How the results depend on the processing

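With the values as deposited, 1248 genes were higher and 9063 lower. The number higher became 2922 with no filter on low values, 3881 with upper-quartile scaling, 4376 with median-of-ratios scaling, 4447 with the length trend removed and 1937 without the second library of 2 weeks and the third of 8 weeks, which had the lowest medians of their groups. The number lower became 5020, 4508 and 3930 with those scalings and the length trend removed. Leaving out each library in turn gave 1051 to 2112 higher, the highest without the third library of 8 weeks, and 8518 to 9588 lower. After median-of-ratios scaling 4376 were higher and 4508 lower, 2582 and 2169 with an absolute log2 change of at least 1, and 3860 to 4917 and 3957 to 5034 with each library left out. Same-numbered libraries did not deviate together (r = -0.035, -0.018 and 0.008), and with the replicate number as a block 1062 were higher and 8388 lower as deposited, and 3579 and 3662 after scaling. Of the 93 named genes none reversed in the settings run on them as deposited. Cma1 lost its call without each library of 2 weeks in turn and with the block, Il2rb with the length trend removed from the values as deposited, and Snhg9 and Hist1h4d with array quality weights. With a filter at 5 FPKM 86 of the 93 were tested, and these kept their call. Depth in reads is unknown, so values near 0 have no stated precision.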
